A study of Mus musculus with 207 samples.

Results

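Lines of the Collaborative Cross (CC) breeding population that stood at the top and at the bottom for Synm, the gene of the intermediate filament protein synemin, were compared in cecal RNA. The brightest of the 4 Synm probes was averaged over the mice of each line, and the lines with the highest means were set against those with the lowest, so that Synm values selected both groups. Of 113 lines, 86 had at least 2 mice left after arrays with values below 0 were set aside, and the top 21 and bottom 21 of the 86 formed the groups. The high group held 42 mice, 21 female and 21 male, and the low group held 43 mice, 22 female and 21 male. The 86 lines together held 173 mice of the 199 whose arrays were kept.

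All mice were untreated adults of incipient inbred lines descended from WSB/EiJ, PWK/PhJ, CAST/EiJ, NZO/HILtJ, NOD/LtJ, 129S1/SvImJ, C57BL/6J and A/J founders. Every mouse had an Illumina WG-6 BeadChip array of its own. A line is known here only by the first number of the animal's label, and neither its founder haplotypes nor the age of its mice entered the comparison. The labels describe RNA from a pellet of cells released with EDTA from the rinsed cecum, a procedure that detaches epithelium. Smooth muscle RNA was nevertheless measured, with mean log2 levels of 14.19 in the high and 13.96 in the low lines for Acta2, where background ended at 6.31, and 20 of 22 smooth muscle contractile genes were above background. In such bulk RNA fewer cells of a type and less RNA per cell cannot be told apart.

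Synemin is a large intermediate filament protein that does not form filaments alone. It co-assembles with desmin or vimentin and ties these filaments to the costameres and dense plaques of muscle through partners such as vinculin, talin and the dystrophin-dystrobrevin complex. In the gut it is a protein of smooth muscle. Contractile genes of smooth muscle are classically driven by serum response factor (SRF) and its cofactor myocardin, which act through CArG boxes, short elements with an A/T-rich middle.

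Synm lies on the minus strand of chromosome 7, from 67730161 to 67759742 (GRCm38.p6). The 250 bases before the annotated start of Synm are shown with those of Acta2, the smooth muscle actin gene, and of 4833412C05Rik and Arrdc4, the genes within about 1 Mb of Synm whose levels followed it most closely over the lines. Sequences are from RefSeq, 5′ to 3′ on the strand of the gene, at chr7:67759743-67759992 (Synm, minus), chr19:34255374-34255623 (Acta2, minus), chr7:67803497-67803746 (4833412C05Rik, minus) and chr7:68749239-68749488 (Arrdc4, minus). Capitals mark a CArG box, a CArG box with 1 other base in its middle, or the letters CCAAT, on either strand.
Synm: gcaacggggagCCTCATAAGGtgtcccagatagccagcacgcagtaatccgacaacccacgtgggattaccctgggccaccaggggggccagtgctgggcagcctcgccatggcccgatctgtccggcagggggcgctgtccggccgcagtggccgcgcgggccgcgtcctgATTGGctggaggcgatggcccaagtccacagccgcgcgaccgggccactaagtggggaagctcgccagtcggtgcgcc
Acta2: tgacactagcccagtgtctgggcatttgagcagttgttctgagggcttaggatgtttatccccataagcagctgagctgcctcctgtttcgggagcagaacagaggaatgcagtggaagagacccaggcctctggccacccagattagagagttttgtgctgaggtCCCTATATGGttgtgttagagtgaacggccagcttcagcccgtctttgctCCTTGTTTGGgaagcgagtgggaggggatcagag
4833412C05Rik: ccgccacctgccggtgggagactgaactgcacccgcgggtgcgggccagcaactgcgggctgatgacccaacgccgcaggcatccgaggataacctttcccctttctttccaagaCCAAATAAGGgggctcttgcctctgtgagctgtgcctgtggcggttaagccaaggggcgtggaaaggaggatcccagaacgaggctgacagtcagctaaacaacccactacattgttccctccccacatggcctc
Arrdc4: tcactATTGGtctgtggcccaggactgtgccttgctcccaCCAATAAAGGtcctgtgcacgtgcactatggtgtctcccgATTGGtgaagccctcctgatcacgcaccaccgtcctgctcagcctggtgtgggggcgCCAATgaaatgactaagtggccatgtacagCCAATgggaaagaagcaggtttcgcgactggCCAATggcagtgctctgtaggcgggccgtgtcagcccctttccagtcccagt
A full CArG box stood in the windows of 4833412C05Rik, at -135, and Arrdc4, at -210, where it overlapped a CCAAT. Such a box stood in 1.47% of the 32851 windows of this length in the reference table. The windows of Synm, at -239, and of Acta2, at -84 and -34, held the form with 1 other base, which together with full boxes was found in 8.59% of windows. The letters CCAAT stood in the windows of Synm and Arrdc4 and in 33.8% of all windows. The window of Des, the desmin gene, held none of these. These matches describe letters only, and of 11 genes looked up 8 had an entry.

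The brightest Synm probe ran from 10.90 to 11.47 over the 21 high lines, with a median of 11.01 (log2 intensity, means of a line). Over the 21 low lines it ran from 7.59 to 10.17, with a median of 9.89. The groups could not overlap, because this probe chose them. The mean difference was 1.75, between 11.06 ± 0.16 and 9.32 ± 0.94 (SD, n = 21 lines each). At the edges the selection was close. Line 792 entered the high group at 10.903 and line 3080 just missed it at 10.902, while line 754 entered the low group at 10.17 and line 70 stayed out at 10.22.

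The low end was not one continuous tail. Of 199 mice, 13 lay between 6.77 and 7.91, and the next mouse was at 8.44. The median over all mice was 10.53. The 12 of these mice that belonged to lines with 2 or more arrays came from 7 lines, all of them in the low group. In 4 of these lines (896, 1258, 2558 and 5389) both mice lay under 8. In lines 821 and 3612 only 1 of the 2 mice did, with the other at 10.53 and 9.74. In line 1519, 2 of its mice lay at 6.77 and 7.81 and the third at 10.79. The other 14 low lines had means from 9.45 to 10.17 and no mouse under 8.

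**Figure D1:**
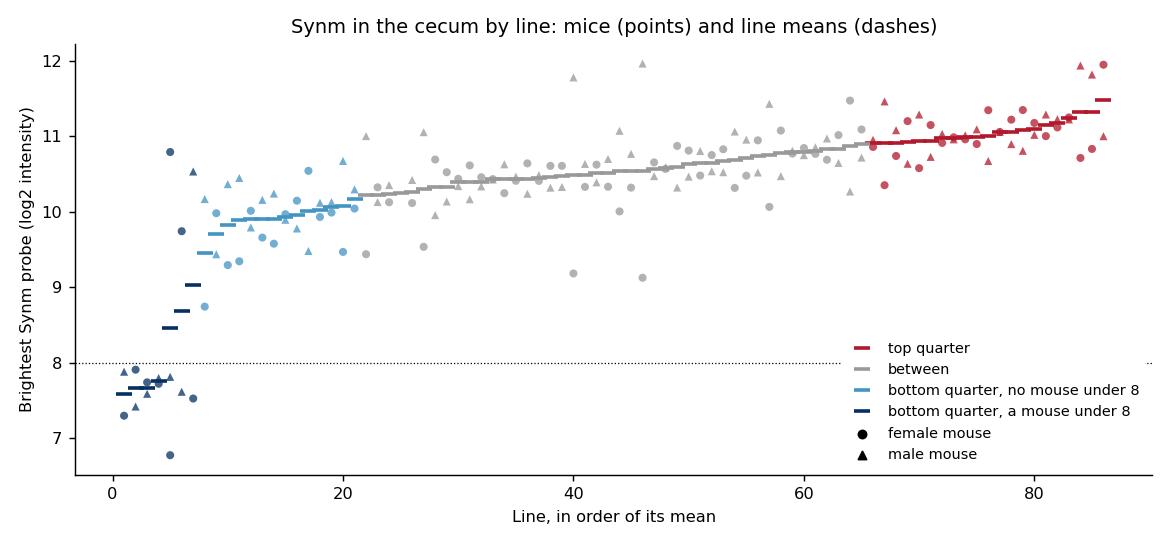
Log2 intensity of the brightest Synm probe in each mouse labelled female (circles) or male (triangles) of the 86 lines, ordered by line mean (dashes). Line 749, whose mice carry the sex labels N and G, is shown by its mean only. The 21 high lines are red, the 14 low lines without a mouse under 8 are light blue and the 7 low lines with one are dark blue; the 12 mice under the dotted line at 8 stand apart from all others.

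The other Synm probes are described without a test, since they measure the gene that chose the lines. The second probe averaged 9.14 ± 0.44 in the high and 8.74 ± 0.41 in the low lines, and it ran from 8.48 to 10.01 and from 8.01 to 9.30, so that the groups overlapped. The remaining pair were close to background, with differences of 0.18 and 0.06. In the 7 low lines with a mouse under 8 the second probe averaged 9.15 ± 0.17, like the high lines, and in the other 14 low lines it averaged 8.53 ± 0.32. The 12 mice under 8 on the brightest probe had 8.81 to 9.74 on the second.

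Over all 86 lines the brightest and the second probe correlated with r = 0.12 and rho = 0.31, and r was 0.24 without the 2 lines farthest from the median. The 7 lines formed a cluster of their own, so the relation was also taken over the other 79 lines, where r was 0.57 and rho 0.52, with r at 0.57 again without the 2 farthest lines. The second number of the labels falls into a low and a high series, split at 100. Over these lines r was 0.58 in the low series (n = 44) and 0.60 in the high series (n = 35). So the probes followed each other over most lines and parted in the 7. Both carry the same RefSeq transcript in the annotation. The relation is a description over line means that share their arrays. Probes that lie over variants of the founder strains, which the authors removed before their own mapping, were kept here. Whether a variant lies under the brightest probe was not tested. The same holds for the probes of the other genes.

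**Figure D2:**
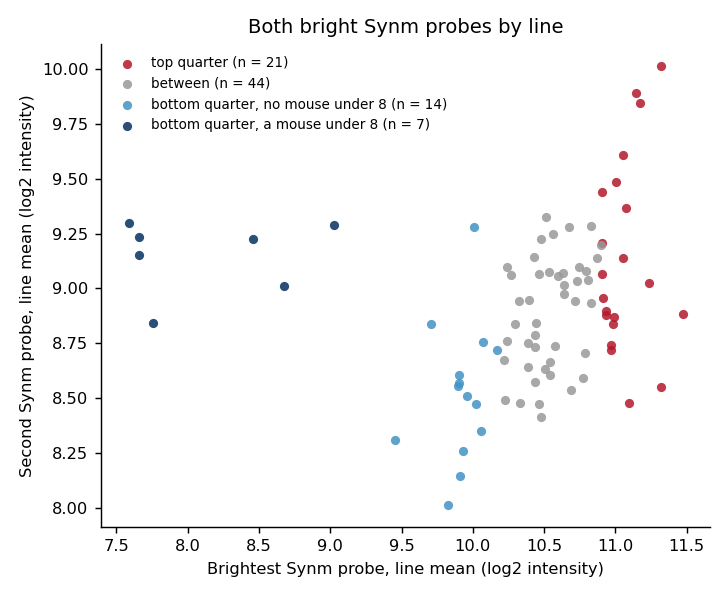
Line means of the brightest Synm probe (horizontal) and of the second Synm probe (vertical), both log2 intensity, for 86 lines. The 7 dark blue lines lie far to the left yet between 8.84 and 9.30 on the second probe, within the range of the red high lines.

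Whether the line or the single mouse carried the difference was asked by ranking the lines on 1 sex and comparing the other. This took the 85 lines with a labelled female and a labelled male. When these were ranked by their females, the males of the top 21 lines ran from 10.27 to 11.29, with a median of 10.89. The males of the bottom 21 ran from 7.42 to 11.96, with a median of 10.15, and 6 of them lay under 8. The groups overlapped, but all 21 males of the top lines lay above the median of the bottom lines. The difference was 1.12 (10.84 ± 0.29 against 9.72 ± 1.44, two-sided permutation test, p = 0.00086). In the reverse ranking the females differed by 0.98 (p = 0.0012), with 17 of 21 above the bottom median. Without the 7 lines, which had been chosen on the same values, the differences were 0.30 and 0.29 and were not tested. The second Synm probe, ranked and compared in the same way, gave differences of -0.02 (p = 0.913) and 0.07 (p = 0.679).

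Between high and low lines 17 probes passed the threshold as higher, 0.0375% of the 45277 probes tested, and 0 as lower, 0.0% of the same probes (limma, Benjamini-Hochberg adjusted p under 0.05). At an unadjusted p under 0.05 there were 3077 probes, 6.80% of those tested. With 1 probe for each gene above background, 13 of 11842 genes rose, 0.11%, and 0 fell, 0.0%, with 959 higher and 620 lower at an unadjusted p under 0.05. The median difference over these genes was 0.01 on the log2 scale. The probe with the smallest p, ILMN_1230443, has no gene name in the annotation used. It ran from 9.63 to 11.07 in the high and from 8.66 to 10.30 in the low lines, a difference of 0.89 ± 0.13 (SE, adjusted p = 0.000642).

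Among the called genes Rgs5 had the largest difference. It encodes a regulator of G-protein signalling known as a marker of pericytes and vascular smooth muscle. Its level ran from 7.64 to 10.07 in the high lines, with a median of 8.87, and from 7.05 to 8.74 in the low lines, with a median of 7.69. The groups overlapped, with 20 of 21 high lines above the low median. The difference was 0.94 ± 0.17 (SE, 1.93-fold, adjusted p = 0.0152). Slco2b1, on chromosome 7, had a larger difference of 1.17 ± 0.33 but was not called (adjusted p = 0.202).

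The other called genes have varied roles. Fhl1, a LIM-domain protein of muscle, had medians of 11.19 in the high and 10.72 in the low lines and rose by 0.44 ± 0.08 (adjusted p = 0.0211). A second Fhl1 probe gave 0.42 with an adjusted p of 0.056. Tns1, which encodes tensin, an adaptor between actin and integrins, had medians of 8.31 and 7.73 and rose by 0.54 ± 0.11 (adjusted p = 0.0453), with all 21 high lines above the low median. Cacna2d1, an auxiliary subunit of voltage-gated calcium channels, rose by 0.54 ± 0.10 (adjusted p = 0.0284), while a dimmer probe above background differed by 0.10 (adjusted p = 0.844). Gkap1, which anchors the cGMP-dependent protein kinase, rose by 0.49 ± 0.08 (adjusted p = 0.00269), while its dimmer probe differed by 0.10 and was not called.

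Rims1, a scaffold of the presynaptic active zone, rose by 0.49 ± 0.10 (adjusted p = 0.0453), Syn2, a synapsin of synaptic vesicles, by 0.26 ± 0.05 (adjusted p = 0.039) and Prickle2, a planar polarity protein, by 0.39 ± 0.08 (adjusted p = 0.0332). None of the 7 enteric neuron markers above background was called, 1 was higher at an unadjusted p under 0.05, and their median difference was 0.05. The rest were Thbs2, a thrombospondin of the matrix (0.38 ± 0.07), the nuclear receptor gene Rora (0.33 ± 0.07), the zinc finger gene Zfp551 (0.30 ± 0.06) and Prss23, a serine protease (0.50 ± 0.08). The last 2 lie on chromosome 7. The 2 other Prss23 probes, both below background, differed by -0.0019 and 0.0216.

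The 13th gene, the adhesion protein gene Flrt2 (0.23 ± 0.04, adjusted p = 0.0152), fell outside the rule for named genes and was named after its values were seen. Jak1, Pcp4l1 and Rgs7bp were called only through a dimmer probe of theirs and were named likewise. The brightest Jak1 probe went the other way, with -0.22 (adjusted p = 0.904) against 0.30 for the called probe. The brightest probes of Pcp4l1 and Rgs7bp differed by 0.38 and 0.37 and were not called. All 13 genes had the same sign in females alone and in males alone. Their choice made this likely, since they were called on line means of these same mice. The differences were 0.85 and 1.04 for Rgs5, 0.62 and 0.45 for Tns1 and 0.51 and 0.25 for Thbs2. When the lines were ranked on 1 sex and the other compared, which uses mice of the same lines again, 6 of the 13 were higher at an unadjusted p under 0.05 in males and 4 in females. Of all genes above background 9.57% and 11.3% were at such a p with their sign of the main comparison. The 13 were called on these lines, so larger shares than these were favoured in advance. Of the 13 none had an adjusted p under 0.05. Over all probes 0 were called higher in either sex, with 2552 and 5087 at an unadjusted p under 0.05 in either direction. None of the 12 largest kept its call under quantile normalization, where Rgs5 differed by 0.84 (adjusted p = 0.0929).

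The smooth muscle contractile genes lay higher in the high-Synm lines as a list, though none of them was called. Of 22 measured genes 20 were above background, 18 of these 20 had a positive difference, and their median difference was 0.30 against 0.01 over all genes above background. Of the 20, 12 were higher at an unadjusted p under 0.05 and 0 lower, against 13.3% of all genes in either direction. The list is described by these counts and was not tested as a set.

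Des, the desmin gene and the filament partner of synemin, had the largest difference of the list. It ran from 10.31 to 11.86 in the high lines, with a median of 10.84, and from 9.68 to 11.00 in the low lines, with a median of 10.35. The groups overlapped, and the difference was 0.56 ± 0.12 (SE, adjusted p = 0.0647). Des passed the threshold under 5 of the alternatives that kept the brightest probe and left out no line, among them quantile normalization (adjusted p = 0.0385) and the number series as a covariate (adjusted p = 0.0451). Des differed alike in females (0.55) and in males (0.56). When lines were ranked by their females, the males differed by 0.48 in Des (unadjusted p = 0.0015), and in the reverse ranking the females differed by 0.27 (unadjusted p = 0.12).

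Tagln, the actin-binding protein SM22, followed with 0.54 ± 0.13 (adjusted p = 0.0963). Myh11, the smooth muscle myosin heavy chain, ran from 10.82 to 12.01 in the high and from 10.07 to 11.75 in the low lines. Its difference was 0.38 ± 0.11 (adjusted p = 0.263). Actg2, the enteric smooth muscle actin, differed by 0.39 ± 0.18 (adjusted p = 0.662) and Acta2 by 0.23 ± 0.11 (adjusted p = 0.722). Tpm1, a tropomyosin, differed by 0.19 ± 0.06 (adjusted p = 0.332). Kcnmb1, a potassium channel subunit, and Csrp1, a LIM protein, had negative differences of -0.10 ± 0.12 and -0.29 ± 0.46. With a smooth muscle score of each line (the mean of the 20 genes, each scaled to unit variance) as a covariate, the median difference of these same genes was 0.01. That fall was fixed in advance, because the score is made of these genes, and nothing is read from it. Of the 12 named called genes Prss23 alone passed the threshold in this fit. Several others kept most of their difference, among them Rgs5 (0.95, adjusted p = 0.106), Gkap1 (0.44, adjusted p = 0.0877), Thbs2 (0.34, adjusted p = 0.227) and Syn2 (0.30, adjusted p = 0.0877), while Tns1 went from 0.54 to 0.24 (adjusted p = 0.564).

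The filament partners of synemin other than Des differed less. Of 9 intermediate filament and partner genes above background, Des included, none was called, 2 were higher at an unadjusted p under 0.05, and the median difference was 0.09. Vim, the vimentin gene, differed by 0.09 ± 0.09, Vcl, the vinculin gene, by 0.20 ± 0.15, and Plec, which encodes the filament linker plectin, by -0.18 ± 0.10. Dtna, which encodes a dystrobrevin, differed by 0.15 ± 0.06 (unadjusted p = 0.0107). In the dystrophin complex all 8 genes above background had positive differences, with a median of 0.10, 2 at an unadjusted p under 0.05 and 0 called, and Sgcb, a sarcoglycan, was at 0.16 ± 0.06 (unadjusted p = 0.00577). Among the regulators of muscle genes 3 of 8 were higher at an unadjusted p under 0.05. They were Srf (0.18 ± 0.05), Myocd, the myocardin gene (0.33 ± 0.13), and Mef2c, a transcription factor of muscle (0.46 ± 0.15), with adjusted p of 0.17, 0.514 and 0.346.

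On chromosome 7, 32 named genes start within 5 Mb of Synm and 21 of them were above background. None was called between high and low lines, and their median difference was 0.03. At an unadjusted p under 0.05 were 6 of 21 (28.6%), against 12.9% of the 10910 genes on other chromosomes. By start coordinate the nearest was 4833412C05Rik, a RIKEN cDNA gene that starts 0.0544 Mb from the start coordinate of Synm. From edge to edge Ttc23 lay closer, ending at 67728622 where Synm begins at 67730161, and it differed by -0.07. The level of 4833412C05Rik ran from 6.59 to 7.72 in the high lines and from 6.05 to 7.43 in the low lines. The low median was 6.70, and 19 of 21 high lines lay above it. Its difference was 0.35 ± 0.10 (adjusted p = 0.175).

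Igf1r, a growth factor receptor tyrosine kinase, lies at 0.222 Mb and differed by 0.19 ± 0.07 (adjusted p = 0.412), though its dimmer probes gave 0.03 or less. Arrdc4, an arrestin-domain gene of thioredoxin-interacting protein's family, lies at 1.01 Mb and differed by 0.38 ± 0.15 (adjusted p = 0.552). Nr2f2, which encodes the nuclear receptor COUP-TFII, differed by 0.11 ± 0.05 (adjusted p = 0.666). On the other side of Synm, Lins1 differed by 0.11 ± 0.05 and Lrrk1 by -0.11 ± 0.05, although a dimmer Lrrk1 probe gave 0.21. The close neighbours Ttc23, Lrrc28 and Lysmd4 had -0.07, 0.03 and -0.04.

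**Figure D3:**
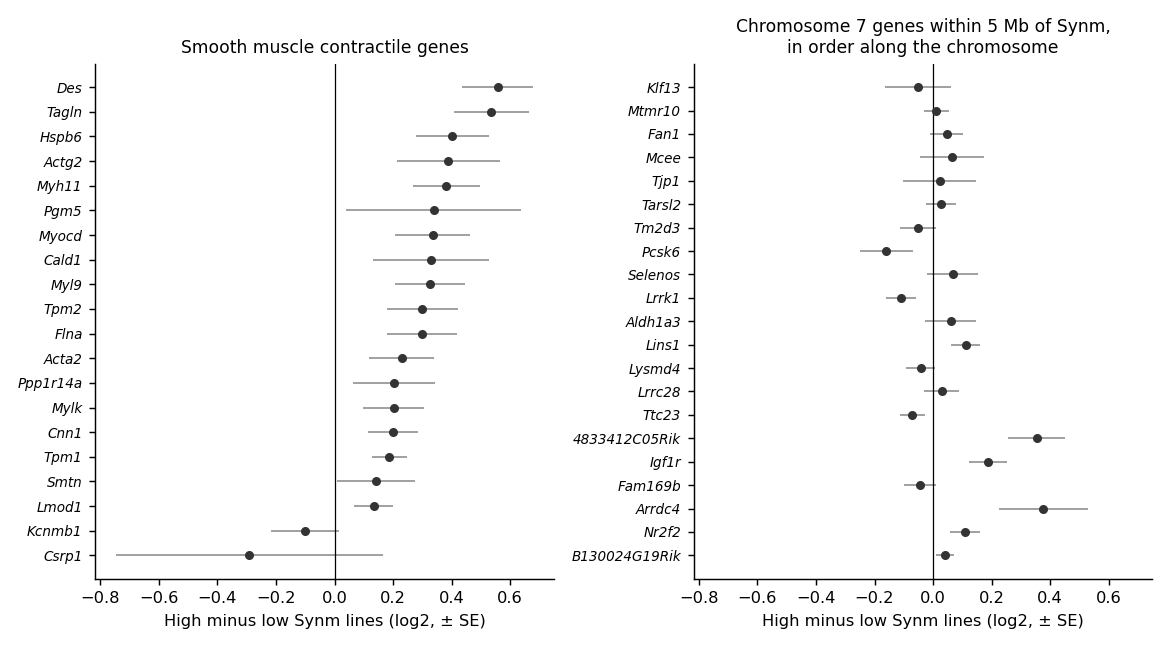
Difference between the 21 high and the 21 low Synm lines (log2, points, with the SE as bars) for the 20 smooth muscle contractile genes above background, by size (left), and for the 21 chromosome 7 genes above background within 5 Mb of Synm, in chromosome order (right). Of the muscle genes 18 lie right of 0, and of the neighbours 4833412C05Rik, Arrdc4 and Igf1r lie farthest right.

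Next, all 86 lines entered and each gene was regressed on the Synm level of the line. Among genes above background 20 rose with Synm, 0.169% of 11842, and 1 fell, 0.00844%. Of these 21 genes 20 lie on chromosome 7, which holds 918 (7.75%) of the genes tested, and the exception was Flrt2 on chromosome 12. Prss23, Zfp551 and Flrt2 were the 3 genes called here and between high and low lines. So 2.18% of the chromosome 7 genes were called and 0.00915% of all others. Calcb and P2ry2 fell outside the rule for named genes and were chosen after their values were seen. The called genes lay from -55.3 Mb (Zfp551) to 47.0 Mb (Calcb) of Synm, 18 on the side of higher coordinates and 2 on the other. This split is given without the number of tested genes on each side, so no lean to a side is read from it. By distance, 1 of 6 genes was called within 1 Mb, 1 of 15 between 1 and 5 Mb, 4 of 75 between 5 and 20 Mb and 14 of 822 farther away.

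The smallest adjusted p belonged to Prss23, at 21.8 Mb, and 4833412C05Rik. Prss23 changed by 0.27 ± 0.03 for each log2 unit of Synm (SE, adjusted p = 4.87e-07) and 4833412C05Rik by 0.24 ± 0.03 (adjusted p = 4.87e-07). The steepest slope was that of Slco2b1, an organic anion transporter, at 0.66 ± 0.11 (adjusted p = 0.000356). Aamdc (0.47 ± 0.07), the ribosomal protein gene Rps3 (0.41 ± 0.08), the Rab27 effector gene Sytl2 (0.34 ± 0.06), the antiviral transcription factor gene Irf3 (0.31 ± 0.06) and Arrdc4 (0.30 ± 0.05) followed. P2ry2, a nucleotide receptor, was the only one that fell, by 0.18 ± 0.04 (adjusted p = 0.0232). Its means of 6.47 in the high and 6.82 in the low lines lay near the background of 6.31. In the same order, means were also near background for Flrt2 (6.63 and 6.40), Calcb (6.47 and 6.25) and Sv2b (6.51 and 6.26). Igf1r (0.06 ± 0.03) and Nr2f2 (0.03 ± 0.02) were not called, and neither was any smooth muscle contractile gene, with Des at 0.17 ± 0.05 (adjusted p = 0.342).

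When the lines were ranked on 1 sex and the other compared, 18 of the 20 chromosome 7 genes were at an unadjusted p under 0.05 in males and 11 in females, against the 9.57% and 11.3% of all genes given above. These rankings use the mice of the regression again, though not the same mouse for Synm and for the gene. The 20 genes were chosen in that regression, so shares above those of all genes were favoured in advance and are no separate support. Prss23 differed by 0.44 in males of lines ranked by females (unadjusted p = 0.0002) and by 0.31 in the reverse ranking (unadjusted p = 0.015). Aamdc differed by 0.78 and 0.79 (unadjusted p = 0.00049 and 0.005). Of the smooth muscle list 4 of 20 genes were at such a p in males and 1 of 20 in females, above the share of all genes in males and below it in females.

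**Figure D4:**
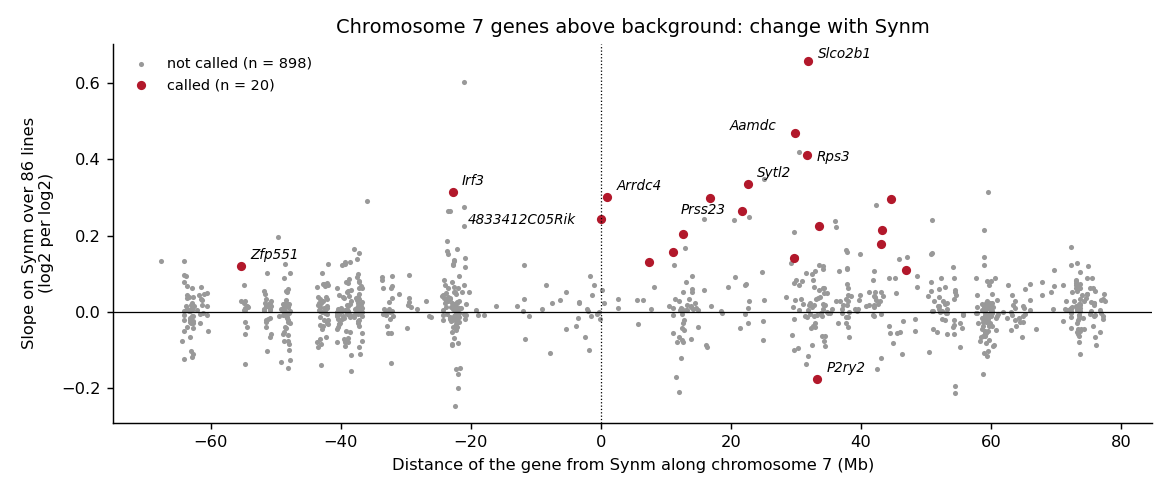
Slope of each of the 918 chromosome 7 genes above background on the Synm level over 86 lines (log2 per log2) against the distance of the gene from Synm (Mb, dotted line at Synm). The 20 called genes are red and spread from -55.3 to 47.0 Mb, with 18 of them right of Synm.

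The genes whose line means were most like those of Synm were, by Pearson's r over 86 lines, 4833412C05Rik (0.64), Prss23 (0.64), Aamdc (0.58), Slco2b1 (0.54), Sytl2 (0.54), Arrdc4 (0.53), Sv2b (0.51), Rps3 (0.50), Ints4 (0.50) and Irf3 (0.50). All 10 lie on chromosome 7. These correlations rest in large part on the 7 lines with a mouse under 8. Over the other 79 lines r was 0.28 for 4833412C05Rik, 0.46 for Prss23, 0.14 for Arrdc4 and 0.10 for Irf3. The 10 highest over those 79 lines were Gnai1 (0.65), Rims1 (0.62), Tns1 (0.61), Flrt2 (0.61), Rora (0.60), Bnip2 (0.59), Cacna2d1 (0.59), Ptn (0.57), Des (0.57) and Gkap1 (0.55), none of them on chromosome 7. Those among them not named before were chosen after their values were seen. These are descriptions over line means that share their arrays with Synm.

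The low group was therefore described in its separate parts, which were chosen after the values were seen and are not tested. In the 7 lines with a mouse under 8, 4833412C05Rik ran from 6.05 to 6.53, with a median of 6.31, while the other 14 low lines ran from 6.50 to 7.43, with a median of 6.89, and the high lines from 6.59 to 7.72. The 7 lines and the high lines did not overlap. The median of 4833412C05Rik in the 7 lay at the background level of 6.31. Prss23 ran from 5.92 to 6.29 in the 7 lines and from 6.39 to 7.19 in the high lines, also without overlap, with the other 14 between and across both (6.14 to 6.94). All 7 thus lay below the background level of 6.31 for Prss23. Both genes were picked for following Synm over lines that include these 7, so the lack of overlap was favoured in advance. How many of all genes lacked such overlap was not counted. Arrdc4 averaged 8.98 ± 0.42 in the 7, 9.76 ± 0.44 in the 14 and 9.87 ± 0.44 in the high lines.

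Slco2b1 ran from 6.76 to 11.26 in them, with a median of 8.02, and its highest line lay above all high-Synm lines (9.81 to 11.10). Aamdc ran from 7.77 to 9.49 and Rps3 from 11.58 to 12.51. Between the other 79 lines and the 7, 34 of 918 chromosome 7 genes (3.70%) differed by at least 0.5, 30 of them lower in the 7. On the other chromosomes 105 of 10910 (0.962%) did, in both directions (49 lower and 56 higher in the 7). Of the 20 genes with the largest such difference 11 lie on chromosome 7. H2-Aa, H2-Ab1, H2-K1, Cyp4f14 and Prkd3, on chromosome 17, were also among the 20 and were higher in the 7. The other 79 lines minus the 7 gave -1.40, -1.33, -1.23, -1.21 and -0.90 for them. The rest were Polr2g, Gramd4, Ctse and Cbr3, on other chromosomes.

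The smooth muscle genes split the low lines the other way. Myh11 averaged 11.45 ± 0.25 in the 7 lines, close to the high lines (11.46 ± 0.30), and 10.88 ± 0.40 in the other 14. Des averaged 10.57 ± 0.23 in the 7, 10.24 ± 0.38 in the 14 and 10.91 ± 0.44 in the high lines. Acta2 averaged 14.18 ± 0.29, 13.85 ± 0.34 and 14.19 ± 0.38 in the same order. Over the 20 genes the median of high minus low was 0.37 with the 14 lines and 0.04 with the 7. Rgs5 behaved differently again, with 7.77 ± 0.36 in the 7, 7.86 ± 0.49 in the 14 and 8.78 ± 0.67 in the high lines, and Fhl1 likewise with 10.77 ± 0.11, 10.73 ± 0.32 and 11.18 ± 0.28.

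**Figure D5:**
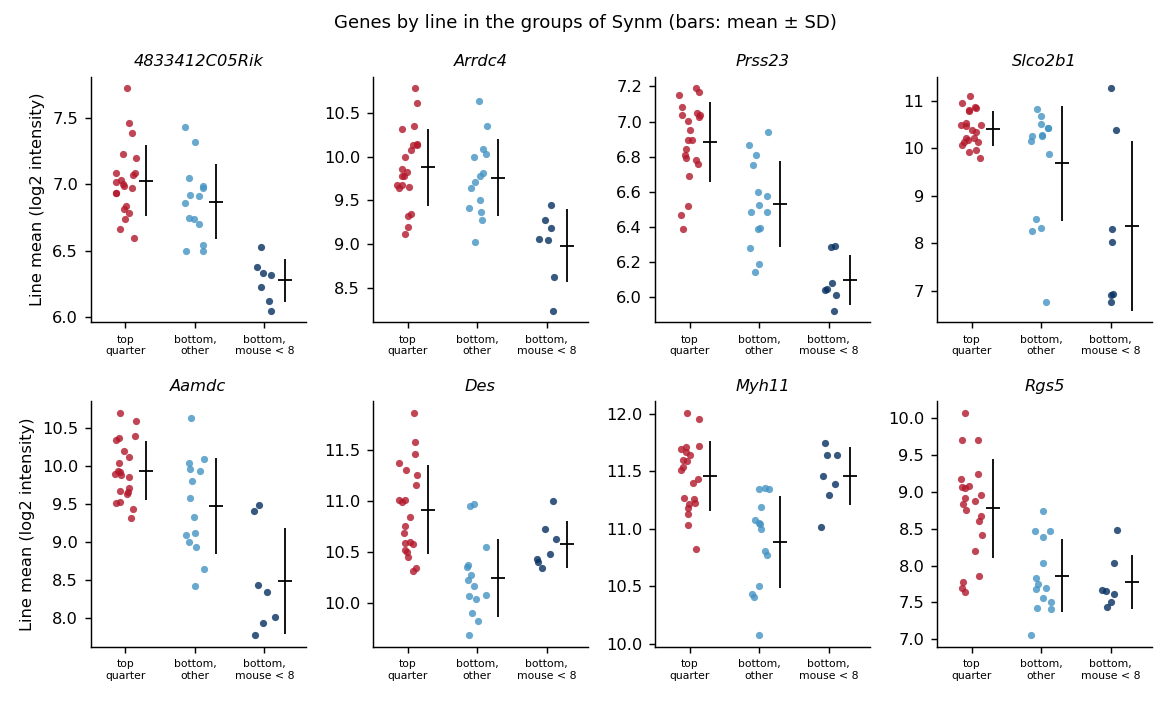
Line means (log2 intensity, points) of 8 genes in the 21 high lines, the 14 low lines without and the 7 low lines with a mouse under 8 on Synm, with the mean and SD of each group as a bar. The upper 4 genes and Aamdc lie on chromosome 7 and are lowest in the 7 lines, whereas Des and Myh11 are lowest in the 14 lines and Rgs5 is low in both.

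Ranking the lines by the second Synm probe gave other groups, with 8 of 21 high and 10 of 21 low lines shared with the main ranking. Between them 926 probes were higher, 2.05% of those tested, and 719 lower, 1.59%. Of genes above background 545 were higher, 4.6%, and 381 lower, 3.22%. Of the 17 probes of the main comparison 8 were also called higher here. The shared lines and arrays favoured this in advance, so it is no separate support. Of the smooth muscle list 7 of 20 genes were called higher, among them Des (0.71, adjusted p = 0.00109), Tagln (0.68, adjusted p = 0.00275), Actg2 (0.67, adjusted p = 0.00976) and Myh11 (0.42, adjusted p = 0.0291). Slco2b1 (-0.34), Prss23 (0.08) and 4833412C05Rik (0.07) were not called. For this probe, too, Synm itself selected the lines.

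Rgs5 was the only called gene in the 18 lists other than those of muscle, filaments, dystrophin and SRF, most of which hold markers of the other cell types a cecal sample can have. It stood in the endothelium and pericyte list, of whose 10 genes 5 had a positive difference. No mesothelium marker of the 3 measured was above background. Pdgfrb, Cspg4 and Notch3, markers of pericytes and mural cells, differed by 0.07, -0.01 and -0.02. The 11 fibroblast and matrix genes had a median of 0.11, led by Dcn, the decorin gene (0.46 ± 0.13, adjusted p = 0.175). The 9 goblet cell genes had a median of 0.26, with Clca1 at 0.53 ± 0.21 (adjusted p = 0.522), and the 11 absorptive colonocyte genes -0.09. Examples from these lists were chosen after their values were seen. The 7 stem cell and proliferation genes had a median of -0.20, with Axin2, a target of Wnt signalling, at -0.24 ± 0.09 (adjusted p = 0.47). The summed muscle level ran from 9.60 to 10.43 in the high and from 9.27 to 10.02 in the low lines (mean log2 of 20 genes). Its part in the other differences was not tested beyond the fit with it as a covariate.

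The difference between high and low lines was not called as different between females and males for any probe (0 of 45277, with 2707 at an unadjusted p under 0.05, limma on female minus male of each line). The number series were not evenly spread, with 16 low-series and 5 high-series lines in the high group and 13 and 8 in the low group. Within the low series Rgs5 differed by 0.87, Prss23 by 0.43 and Des by 0.44, and within the high series by 1.07, 0.67 and 0.87. Median array brightness was 6.32 ± 0.08 in the high and 6.31 ± 0.05 in the low lines (log2).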

How the data were processed

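Cecal RNA of each mouse was put on 1 array. The values the authors deposited are linear probe intensities from BeadStudio 3.0.19 (also named in the submitters' notes), scaled by rank-invariant normalization and not background-subtracted. The table has 45281 probes, including those over founder variants. Arrays give no read depth, and their number limits the precision. Medians of arrays ran from 71.4 to 99.7. Of all arrays 8 had a value below 0 and were left out. In the other 199, values under 16 were set to 16 before log2 was taken here. Line means were fitted in R 4.3.3 with limma (version 3.58.1, lmFit, then eBayes). Synm probes were left out of the fit, and p was adjusted by Benjamini-Hochberg over 45277 probes. A p not called adjusted is unadjusted.

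The platform annotation gave 34885 probes a single gene and 18 several, and left 10378 unnamed. Positions are from RefSeq (GRCm38.p6). Each gene was represented by its brightest probe and was above background over 6.31 on the log2 scale, the 95th percentile of 1545 chemoreceptor probes. Distances run between start coordinates. All columns matched a sample (0 unmatched). The labels do not say which mice of a line are litter mates. Synm in the other sex was tested with 100000 permutations. The members, gene lists and tests were chosen with earlier results of these data known. The rule for named genes took all Synm probes, the muscle, filament, dystrophin and SRF lists, chromosome 7 genes within 5 Mb, the 12 called genes above background with the largest rise and the same sign in both sexes, and the 10 genes most like Synm. Alternatives were quantile normalization, a floor of 32, all arrays, probes above background only, sex centring, number series, larger groups, regression over all lines, muscle score or array brightness as covariates, ranking by 1 sex and ranking by the second probe. Leaving out lines with a mouse under 8 was added after seeing the data. The fits were tested on simulated data. Other steps ran in Python 3.11.15 (pandas 2.3.3, numpy 2.4.6, scipy 1.17.1, matplotlib 3.10.9).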

Additional observations from a re-analysis of the deposited data

How the results depend on the processing

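The 17 probes called higher became 5 under quantile normalization, 52 with only probes above background, 47 with the number series and 44 with array brightness as covariates, 29 in the regression, 2 with the muscle score as a covariate, 0 within the low and 3 within the high series, 0 in either ranking by 1 sex and 926 by the second probe. The probes called lower, 0 at first, were 2, 5, 1, 2 and 2 with only probes above background, the number series, brightness, the regression and the muscle score, 1 when ranked by males and 719 by the second probe. Smooth muscle genes called higher went from 0 to 1, which was Des, under quantile normalization, with only probes above background, with the number series or brightness as covariates and between larger groups of 28 lines, and to 7 by the second probe. Chromosome 7 neighbours called went from 0 to 2 in the regression and 1 by the second probe. Without the 7 lines with a mouse under 8, an alternative added after seeing the data, 32 probes were higher, 1 lower and 2 smooth muscle genes higher, Des (adjusted p = 0.0449) and Myh11 (adjusted p = 0.0396). Of the 12 named called genes 5 kept the call there, and Rgs5 (adjusted p = 0.058), Prss23 (0.067), Fhl1, Thbs2, Zfp551, Syn2 and Prickle2 lost it.

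Signs turned in 13 values, none of them called under the alternative, and Syn2 alone was called in the main comparison. By the second probe these were Syn2 (-0.0180), Arrdc4 (-0.0047), Stard10 (-0.0061), Slco2b1 (-0.34) and Sytl2 (-0.0790). With the muscle score they were Actg2 (-0.12), Acta2 (-0.0877) and Tpm2 (-0.0631). In rankings by females it was Igf1r (-0.0173) and Nr2f2 (-0.0098), and in rankings by males Tpm2 (-0.0177), Flna (-0.0338) and Nr2f2 (-0.0547). The 12 named called genes kept sign and call with a floor of 32, sex centring, the number series, brightness and only probes above background. With all arrays 8 of the 12 kept the call, and between larger groups 7 did. By the second probe 5 kept it, in the regression 2 and with the muscle score 1. All 12 lost the call under quantile normalization, where Rgs5 and Prss23 had an adjusted p of 0.0929 each, within either series and in either ranking by 1 sex. The Synm difference in the other sex stayed between 0.88 and 1.12, over quantile normalization, the floor of 32, all arrays, larger groups and the reverse ranking. The cause of these moves was not tested, and the groups within a series were smaller. No paired analysis was possible because high and low groups hold different lines and the replicate number only names a mouse. Females and males, which share lines, were compared within lines.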
